A study of Mus musculus with 12 samples.

Results

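The 37 genes described here are interferon-stimulated genes, transcripts that mouse cells make more of when an interferon binds its receptor. They were chosen by name, from common knowledge of the interferon response, and all 37 were found among the 28987 genes of a mouse bone marrow RNA sequencing table with 12 libraries. Of the 37, 31 are typical of the response to type I interferon and 6 (Iigp1, Irgm1, Igtp, Gbp2, Gbp3 and Gbp7) of the response to interferon-gamma, although most members of both classes answer to both interferons. The libraries form 6 groups of 2, all from C57BL/6 mice. Haematopoietic stem and progenitor cells (HSPC) were taken from wild type mice, from mice mutant in CBL, from mice mutant in RUNX1 and from CBL/RUNX1 mutant mice, the last called double mutant here. Ly6G+ myeloid cells were taken from wild type and double mutant mice. CBL is a ubiquitin ligase that ends receptor signalling, while RUNX1 binds DNA and directs the formation of blood cells. HSPC were enriched through the receptor CD117 and Ly6G+ cells were sorted, with a further sort for the mutant clone. The alleles and how they were introduced, the age of the mice, and whether wild type cells went through the same procedure are not given in the sources used here, so preparation and genotype cannot be told apart. Marrow was taken from individual mice, but nothing says which libraries share one, and p-values measure the spread between these libraries.

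Type I interferons signal through a receptor made of Ifnar1 and Ifnar2 to the kinases Jak1 and Tyk2, which activate a complex with STAT2 and IRF9 that binds a DNA motif called the interferon-stimulated response element (ISRE). Interferon-gamma signals through Ifngr1 and Ifngr2 and acts on a different motif, the gamma-activated site (GAS). The genes switched on encode transcription factors that extend the response, sensors of viral RNA, enzymes and GTPases that block viral growth, and inhibitors that end the response, and in bone marrow both interferons are known to act on stem cells and on maturing myeloid cells.

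A regulatory motif found in part of these genes is shown in the upstream sequence of 6 members. They were picked among members with a match, and their values are described further on. Each line gives 200 bases that end just before a start site, 5′ to 3′ on the strand of the gene, from RefSeq on GRCm38.p6, with matches to the ISRE core GAAANNGAAA, or to TTTCNNTTTC on the other strand, in capitals.
Ifit1 (chr19:34640689-34640888, plus strand): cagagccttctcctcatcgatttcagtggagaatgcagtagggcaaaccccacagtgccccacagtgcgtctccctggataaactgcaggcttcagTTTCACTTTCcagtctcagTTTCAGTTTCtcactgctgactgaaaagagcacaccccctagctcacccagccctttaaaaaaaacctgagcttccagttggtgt
Ifit3 (chr19:34583329-34583528, plus strand): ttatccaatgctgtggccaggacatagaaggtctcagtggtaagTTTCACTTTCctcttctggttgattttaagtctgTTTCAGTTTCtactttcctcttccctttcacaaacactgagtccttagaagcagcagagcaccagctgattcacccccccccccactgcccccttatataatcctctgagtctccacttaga
Trim30a (chr7:104465194-104465393, minus strand): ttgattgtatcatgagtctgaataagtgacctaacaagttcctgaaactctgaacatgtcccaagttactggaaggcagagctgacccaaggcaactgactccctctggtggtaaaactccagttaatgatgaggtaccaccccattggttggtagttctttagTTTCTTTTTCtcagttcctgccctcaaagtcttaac
Bst2 (chr8:71537473-71537672, minus strand): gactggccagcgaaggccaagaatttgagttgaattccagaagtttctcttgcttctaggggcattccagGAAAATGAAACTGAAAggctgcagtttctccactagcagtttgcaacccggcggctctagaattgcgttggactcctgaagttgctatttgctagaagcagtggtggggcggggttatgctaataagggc
Gbp2 (chr3:142620463-142620662, plus strand): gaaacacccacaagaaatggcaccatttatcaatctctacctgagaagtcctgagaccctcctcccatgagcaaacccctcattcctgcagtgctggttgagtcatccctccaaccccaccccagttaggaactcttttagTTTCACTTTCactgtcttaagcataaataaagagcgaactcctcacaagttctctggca
Gbp3 (chr3:142559844-142560043, plus strand): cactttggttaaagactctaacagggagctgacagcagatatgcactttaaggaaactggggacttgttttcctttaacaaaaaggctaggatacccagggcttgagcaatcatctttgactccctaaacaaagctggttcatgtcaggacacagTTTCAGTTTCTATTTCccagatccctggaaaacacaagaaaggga
In Ifit1 and Ifit3 a pair of separate matches lay upstream of the start, whereas in Bst2 and Gbp3 a pair of matches overlapped. Gbp3 and Trim30a each have another listed start, not printed, whose 200 bases held no match. Over windows from 250 bases before to 50 bases after the start, 28 of the 37 members had an entry, and 17 of these 28 (60.7%) held the core. The same letters occurred in 1079 of 27025 genes (3.99%). The match was present in 5 of 5 interferon-gamma typical members and in 12 of 23 type I typical members with an entry. The longer motif GAAANNGAAACT (AGTTTCNNTTTC on the other strand), which contains the core, occurred in 10 of 28 members (35.7%) and in 0.303% of all genes. The GAS letters TTCNNNGAA, which read the same on both strands, occurred in 7 of 28 members (25.0%) and in 9.55% of all genes. A match describes the letters only, and binding was not measured.

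Values are TPM, the length-corrected share of a gene in a library, multiplied between libraries so that most genes keep their level (scaled TPM). Fold changes are differences of log2(scaled TPM + 1), which understate the change of genes near or below 1 TPM. They are given with their standard error and with a p-value from limma adjusted over all genes tested, and a gene is called where that value is under 0.05. No read numbers are held in the table, so the depth behind a value is unknown. The libraries did not all match their labels cleanly. The summed level of 8 neutrophil markers was 385000 and 487000 scaled TPM in the wild type HSPC libraries, against 503000 and 504000 in wild type Ly6G+ cells and 69400 and 86900 in double mutant HSPC. Most of this sum came from S100a8 and S100a9. S100a8 was at 228000 and 295000 in wild type HSPC and at 218000 and 208000 in wild type Ly6G+ cells. Mmp8 was at 169 and 184 against 2360 and 2690, and Retnlg at 597 and 747 against 21700 and 21400. Ly6g was also lower, at 579 and 711 in wild type HSPC, while S100a9, Ngp, Ltf and Camp differed less. Double mutant Ly6G+ library 1 stood apart, with a neutrophil sum of 56600 against 325000 in library 2, and with Ly6g itself at 259 against 1520 scaled TPM and 2520 and 2570 in wild type. RUNX1 mutant HSPC library 1 also stood apart, with a stem and progenitor marker sum of 645 against 128 in library 2 and from 72.3 to 266 in the other HSPC libraries. The B and plasma cell sum was 48000 and 58500 in wild type HSPC and at most 14400 in the mutant HSPC libraries. The part of these markers in the results below was not tested, and in bulk samples fewer cells of a type and less RNA per cell cannot be told apart.

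Across the 12 libraries the 37 genes were mostly higher in Ly6G+ cells than in HSPC. For 33 of the 37 the highest value was in one of the double mutant Ly6G+ libraries (27 in library 2 and 6 in library 1), for 3 in wild type Ly6G+ library 2, and for Gbp3 in double mutant HSPC library 1. The lowest value was in double mutant HSPC library 2 for 22 members, in RUNX1 mutant HSPC library 2 for 7 and in CBL mutant HSPC library 2 for 5. The members also differed widely among themselves in level per length. In wild type HSPC the mean scaled TPM ran from 0.231 for Mx2, which encodes a GTPase, to 162 for Sp100, a nuclear body protein.

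**Figure D1:**
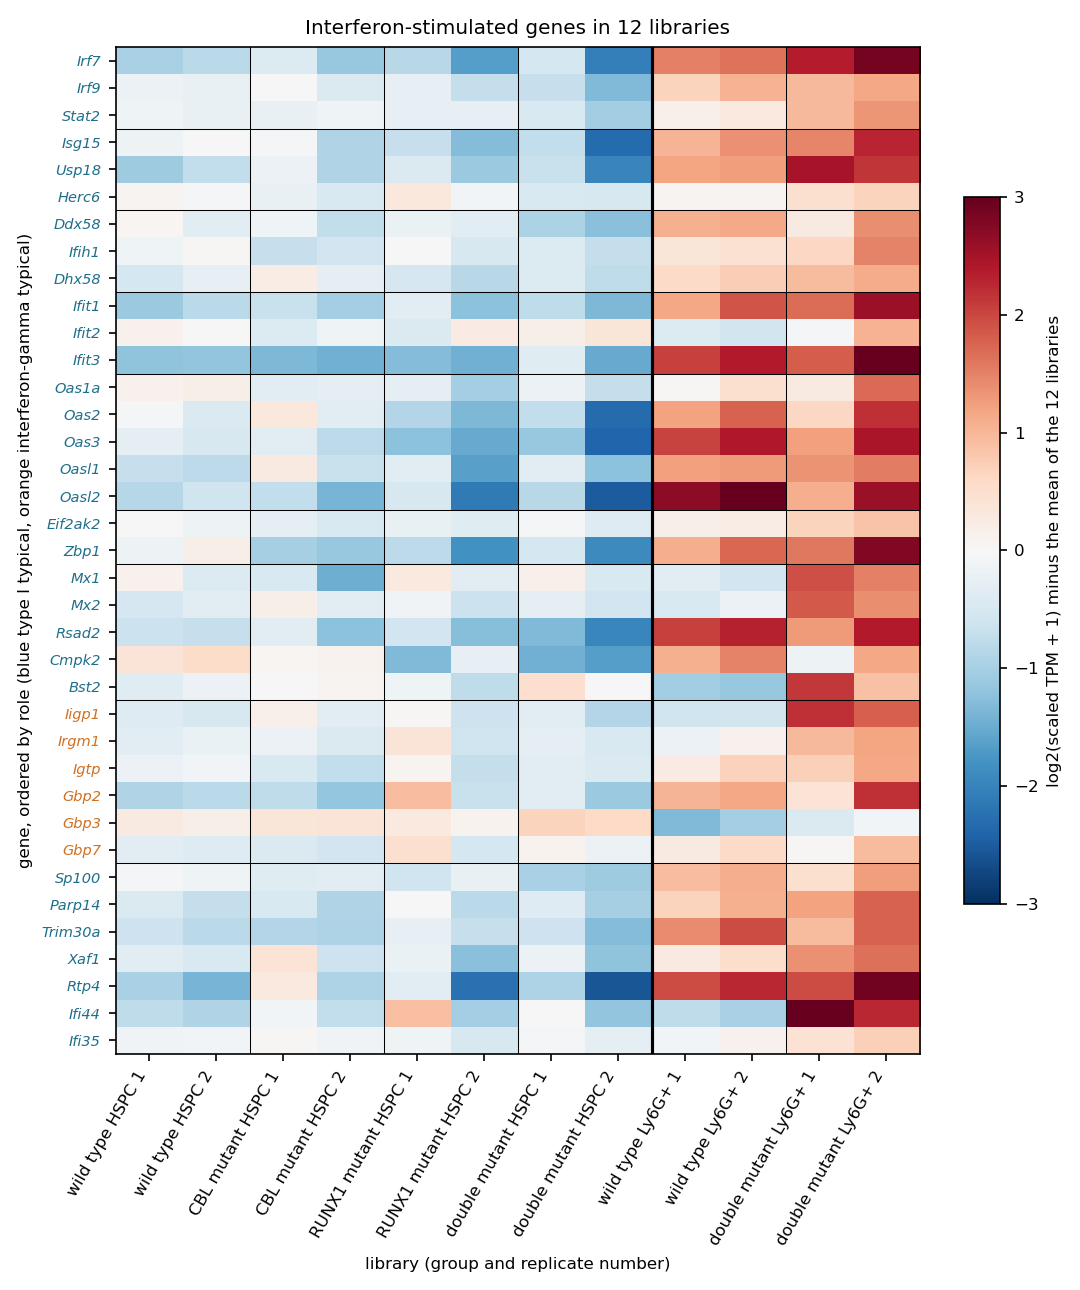
Each row is 1 of the 37 genes, ordered by role, and each column 1 of the 12 libraries. Colour gives log2(scaled TPM + 1) minus the gene's mean over the 12 libraries, so red is above and blue below that mean. The Ly6G+ columns at the right are mostly red, and library 2 of double mutant HSPC is the lowest column for 22 genes.

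The first comparison asked how wild type Ly6G+ cells and wild type HSPC differ in these genes. Wild type Ly6G+ cells had more transcript of 16 members and less of 1, Gbp3, among 37 tested, where 39.1% of 13155 genes were called, 16.4% higher and 22.7% lower. The median log2 difference of the members was 1.04, beside -0.08 over all genes tested, and 20 members had an unadjusted p under 0.05 (49.1% of all genes). The groups did not overlap for 28 members that were higher and 4 that were lower in Ly6G+ cells, where this held for 38.6% and 45.7% of all genes. Called members came from every role except the nucleic acid binding proteins Eif2ak2 and Zbp1.

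Among the transcription factors, Irf7, which amplifies type I interferon production, was at 11.6 and 13.1 scaled TPM in wild type HSPC and at 69.7 and 76.0 in Ly6G+ cells. It rose by a log2 difference of 2.47 ± 0.49 (SE, adjusted p = 0.0055). Irf9, the DNA-binding partner of STAT2, was at 27.0 and 25.9 in HSPC and at 48.8 and 63.4 in Ly6G+ cells, a rise of 1.05 ± 0.26 (adjusted p = 0.0142). For both genes the groups were well separated. Stat2 was not called, with 12.1 and 11.1 in HSPC against 14.7 and 16.4 (0.39 ± 0.21, adjusted p = 0.174). In the ISG15 system, Usp18, which removes ISG15 from proteins and shuts down receptor signalling, was at 1.42 and 2.04 scaled TPM in HSPC and at 10.5 and 11.1 in Ly6G+ cells (2.12 ± 0.45, adjusted p = 0.0071). Isg15, the ubiquitin-like modifier, was at 14.2 and 16.2 against 33.3 and 43.2, which did not pass (adjusted p = 0.0826). The sensors of viral RNA Ddx58 (RIG-I) and Dhx58 (LGP2) rose. Ddx58 was at 19.8 and 14.8 in HSPC and at 41.0 and 43.0 in Ly6G+ cells, and Dhx58 was at 12 and 14.8 against 26.8 and 30.2, with differences of 1.25 ± 0.35 (adjusted p = 0.0231) and 1.04 ± 0.22 (adjusted p = 0.00787). Ifih1 (MDA5), the other sensor, was at 5.24 and 6.00 against 7.86 and 8.37 and was not called (adjusted p = 0.247).

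Ifit1, which binds foreign RNA, and Ifit3 of the same family were below 1 scaled TPM in both wild type HSPC libraries. Their upstream sequences are printed above. Ifit1 was at 0.564 and 0.931 there and at 6.67 and 11.7 in Ly6G+ cells (2.51 ± 0.43, adjusted p = 0.00315). Ifit3 was at 0.827 and 0.859 and at 16.3 and 20.9 (3.40 ± 0.53, adjusted p = 0.00219). Among HSPC libraries Ifit3 reached 1 TPM only in double mutant library 1, so it passed the filter on low values only through the Ly6G+ libraries. The counts and the median of this comparison include it. Ifit2, of the same family, went the other way without being called, from 12.3 and 11.4 in HSPC to 8.14 and 7.40 (-0.55 ± 0.34, adjusted p = 0.229). In the oligoadenylate synthetase family, whose active enzymes switch on an RNase, 3 of 5 members rose. Oasl2 was at 9.41 and 11.4 in HSPC and at 120 and 161 in Ly6G+ cells, the largest difference of the 37 (3.62 ± 0.71, adjusted p = 0.00537). Oas3 was at 12.1 and 10.4 against 63.9 and 82.9 (2.60 ± 0.47, adjusted p = 0.00389), and Oasl1 at 2.93 and 2.70 against 13.9 and 14.5 (2.0 ± 0.47, adjusted p = 0.0114). All 3 had groups far apart. Oas2 narrowly missed the threshold (1.72, adjusted p = 0.0509), and Oas1a was at 23.1 and 24.0 against 21.5 and 29.8, where the groups overlapped. Rsad2 (viperin), which makes a chain-terminating nucleotide, was at 2.65 and 2.53 in HSPC and at 22.7 and 27.1 in Ly6G+ cells (2.85 ± 0.45, adjusted p = 0.00224). Mx1, Mx2 and Ifi44 were not called, with differences of -0.33 ± 0.39, 0.11 ± 0.29 and -0.03 ± 0.65.

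Among the interferon-inducible GTPases the direction was mixed. Gbp2 was at 2.60 and 2.84 scaled TPM in HSPC and at 12.6 and 14.1 in Ly6G+ cells (1.94 ± 0.64, adjusted p = 0.0404). Gbp3 was at 15.4 and 14.3 in HSPC and at 4.38 and 5.70 in Ly6G+ cells, and fell by 1.40 ± 0.17 (adjusted p = 0.00105). These 2 guanylate-binding proteins lie in the same gene cluster on chromosome 3 and both hold the ISRE core in the printed windows, yet they moved in opposite directions between the populations. Igtp, Irgm1 and Gbp7 were higher in both Ly6G+ libraries without being called, and Iigp1 was between 0.312 and 0.540 in all 4 libraries. Of the remaining members, 4 rose. Trim30a, a ubiquitin ligase family protein, was at 24.7 and 21.6 in HSPC and at 105 and 153 in Ly6G+ cells (2.41 ± 0.33, adjusted p = 0.00148). Rtp4, which binds foreign RNA and limits the response, was at 5.02 and 3.46 and at 44.3 and 55.2 (3.28 ± 0.74, adjusted p = 0.00919). Both were several times higher in each Ly6G+ library. Sp100 was at 167 and 157 against 326 and 370 (1.10 ± 0.26, adjusted p = 0.0105), and Parp14, an ADP-ribosyltransferase, at 5.60 and 4.45 against 13.3 and 17.7 (1.45 ± 0.35, adjusted p = 0.0121). Each of the 17 called members kept its direction with every scaling tried. Irf9 and Gbp2 were not called with unscaled TPM (adjusted p = 0.0564 and 0.0556), and Gbp2 was not called either with a pseudocount of 5 (0.0589) or with no filter on low values (0.0704). The count of called members was 9 without wild type Ly6G+ library 2 (18.2% of all genes called) and 10 without wild type HSPC library 2 (16.7%), and 28 when the 4 wild type libraries were fitted alone (72.2%).

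The second question was whether the mutations altered these genes in HSPC. Double mutant HSPC had less transcript of 3 of the 35 members tested (Cmpk2, Sp100 and Ddx58) and more of none. In this comparison 11.1% of 12421 genes were called, 6.54% lower and 4.56% higher. Ifit3 and Mx2 did not reach 1 TPM in enough HSPC libraries to be tested, with ranges over the 8 HSPC libraries of 0.466 to 2.26 and of 0.0487 to 0.870 scaled TPM.

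Cmpk2, a mitochondrial nucleotide kinase that lies beside Rsad2 on chromosome 12, was at 28.2 and 31.3 scaled TPM in wild type HSPC, and at 7.16 and 6.08 in double mutant HSPC. CBL mutant HSPC held 22.1 and 22.9, and RUNX1 mutant HSPC 7.92 and 17.7. Both double mutant libraries were below all 6 others. Cmpk2 fell by 2.02 ± 0.31 on the log2 scale in double mutant against wild type HSPC (adjusted p = 0.0208) and by 1.63 ± 0.31 against CBL mutant HSPC (adjusted p = 0.0438). Sp100 was at 167 and 157 in wild type, 86.6 and 82.0 in double mutant, 133 and 135 in CBL mutant and 113 and 148 in RUNX1 mutant HSPC. The double mutant libraries were again the lowest of the 8, and Sp100 fell by 0.93 ± 0.15 against wild type (adjusted p = 0.0226). Ddx58 was at 19.8 and 14.8 in wild type, 9.35 and 7.35 in double mutant, 17.2 and 11.0 in CBL mutant and 16.3 and 15.1 in RUNX1 mutant HSPC. It fell by 0.97 ± 0.24 against wild type (adjusted p = 0.0477), also with both double mutant libraries below the rest. None of the 3 was called after leaving out either library of the wild type, the CBL mutant or the double mutant group, and 9 and 10 members were called without RUNX1 mutant library 1 and library 2. The share of all genes called fell to between 0.186% and 1.84% in the first case and reached 36.0% and 35.3% in the second. With unscaled TPM 3 members were called higher (Gbp3, Ifit2 and Bst2) and 1 lower (Cmpk2), and with upper quartile scaling 1 higher (Gbp3) and 2 lower (Cmpk2 and Sp100), where 35.3% and 13.1% of all genes were called. Fitting the 4 libraries of these groups alone called 9 members, 8 lower and 1 higher, beside 39.9% of all genes. Neutrophil markers summed to 69400 and 86900 in the double mutant libraries and to 385000 and 487000 in the wild type ones, and their part in these differences was not tested.

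Over the members as a group, 29 of 35 had a negative and 6 a positive difference between double mutant and wild type HSPC, with a median of -0.31 beside 0.02 for all genes. Libraries did not overlap for 14 members that were lower (34.5% of all genes) and 4 that were higher (36.6% of all genes). The 4 were Ifit2, Bst2, Gbp3 and Gbp7. With unscaled TPM the median of all genes moved to 0.56 and that of the members to 0.18, so the sign of the members' median depended on the scaling. It also rested on 1 library: without double mutant HSPC library 2 the median was 0.02, with 18 positive and 17 negative, beside 0.01 for all genes, and without library 1 it was -0.55. The transcription factors Irf9, Stat2 and Irf7 were not called. Irf9 was at 18.4 and 11.6 against 27.0 and 25.9 scaled TPM in wild type (-0.81 ± 0.26, adjusted p = 0.0785), and Stat2 at 9.43 and 5.87 against 12.1 and 11.1 (-0.58 ± 0.20, adjusted p = 0.1). Irf7, at 16.3 and 5.01 against 11.6 and 13.1, straddled the wild type values. Isg15 was at 9.12 and 2.45 against 14.2 and 16.2 (-1.45 ± 0.52, adjusted p = 0.103), and Oas3 at 6.22 and 2.02 against 12.1 and 10.4 (-1.39 ± 0.39, adjusted p = 0.0632). In each of these the groups were apart but the double mutant libraries themselves differed by more than the wild type libraries did. Bst2 (tetherin), which holds virus particles at the cell surface, was at 106 and 75.2 against 57.0 and 65.3 and was not called (adjusted p = 0.165).

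Neither single mutant group had a called member. In CBL mutant against wild type HSPC, limma called 0 of 35 (0.556% of all genes), with 1 member at an unadjusted p under 0.05 (10.8% of all genes). The members closest to the threshold were Ifih1 at 3.24 and 3.57 scaled TPM against 5.24 and 6.00 (-0.59 ± 0.23, adjusted p = 0.429) and Zbp1, a sensor of unusual nucleic acid forms, at 4.77 and 4.17 against 9.33 and 11.9 (-1.08 ± 0.49, adjusted p = 0.493). Mx1 was at 5.38 and 2.17 against 8.50 and 5.59 (-0.82 ± 0.41, adjusted p = 0.526). All 3 were lower in both mutant libraries, and 12 members were so in all (31.3% of all genes) against 6 that were higher in both (25.5%). The median was -0.11, beside -0.02 for all genes, and 0.09 without CBL mutant library 2. In RUNX1 mutant against wild type HSPC, 0 of 35 were called (0.0483% of all genes, 0.00805% higher and 0.0403% lower) and 4 had an unadjusted p under 0.05 (16.5%). Cmpk2, with the values above, differed by -1.25 ± 0.31 (adjusted p = 0.21). Oas1a was at 17.3 and 9.94 against 23.1 and 24.0 (-0.79 ± 0.27, adjusted p = 0.255), and Zbp1 at 5.60 and 2.23 against 9.33 and 11.9 (-1.32 ± 0.49, adjusted p = 0.276). Members below both wild type libraries numbered 11 (27.0% of all genes), and 1 member, Gbp2, was above both (22.1%). The median was -0.18, beside -0.03 for all genes, and with unscaled TPM 0.33, beside 0.45. Without RUNX1 mutant library 2, 6 members were called, 4 higher (Ifi44, Gbp2, Gbp7 and Irgm1) and 2 lower (Cmpk2 and Sp100), where 29.3% of all genes were called, and the median of the members was 0.1. Without library 1 that median was -0.4.

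Set against the single mutants directly, double mutant HSPC had 1 called member, Cmpk2, lower than in CBL mutant HSPC (3.67% of all genes called, 2.21% lower and 1.47% higher). At an unadjusted p under 0.05 there were 7 members (25.8% of all genes), and libraries did not overlap for 11 that were lower (30.4%) and 4 that were higher (34.3%). The members next in order were Sp100 (-0.66 ± 0.15, adjusted p = 0.0606) and Oas3 (-1.20 ± 0.39, adjusted p = 0.124), Oas3 being at 11.5 and 8.21 scaled TPM in CBL mutant HSPC. The Cmpk2 call was lost when any library of the wild type, CBL mutant or double mutant groups was left out, and with no filter on low values (adjusted p = 0.0811). With RUNX1 mutant library 1 or library 2 left out 4 members were called, beside 23.7% and 23.4% of all genes. Against RUNX1 mutant HSPC limma called 0 of 35 members (9.09% of all genes, 5.89% higher and 3.2% lower), with 7 at an unadjusted p under 0.05 (29.2%), 2 higher and 5 lower. Libraries did not overlap for 2 members that were higher (28.5%) and 6 that were lower (25.5%). Sp100 differed by -0.61 ± 0.15 (adjusted p = 0.0529), Gbp3 by 0.45 ± 0.12 (adjusted p = 0.0656) and Ddx58 by -0.84 ± 0.24 (adjusted p = 0.0703). Gbp3 was at 15.5 and 13.5 in RUNX1 mutant and at 20.6 and 19.6 in double mutant HSPC, the 2 highest of the 12 libraries. Leaving out either RUNX1 mutant library gave 4 calls, namely Gbp3, Bst2, Cmpk2 and Sp100 without library 1, and Ifit2, Gbp2, Herc6 and Irgm1 without library 2, where 28.9% and 20.2% of all genes were called. These comparisons share the double mutant libraries and are not independent.

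Within some groups most of these genes differed between the 2 libraries in one direction. In double mutant HSPC, 36 of 37 members were higher in library 1 than in library 2, all but Ifit2, with a median log2 gap of 0.6, while 45.3% of all 13155 genes were higher in library 1. In RUNX1 mutant HSPC 33 of 37 were higher in library 1 (median 0.61, all genes 51.1%), and in CBL mutant HSPC 29 (median 0.39, all genes 43.8%). Wild type HSPC showed no such tilt, with 20 of 37 (median 0.06, all genes 42.6%). The gap reached 1.67 for Oasl2 in double mutant HSPC, at 9.61 and 2.33 scaled TPM, 1.93 for Ifi44 in RUNX1 mutant HSPC, at 3.98 and 0.303, and 1.22 for Rtp4 in CBL mutant HSPC, at 13.3 and 5.14. Library 1 was the higher in all 3 mutant HSPC groups for 29 of 37 members and for 15.9% of all genes. In Ly6G+ cells the higher library was number 2. It held the higher value of 32 of 37 members in wild type (median gap -0.27) and of 31 in double mutant cells (median -0.58), and 29 were higher there in both groups (29.6% of all genes). The gap exceeded 1 on the log2 scale for 0 members in both wild type groups. It did so for 11 members in double mutant, 9 in RUNX1 mutant and 3 in CBL mutant HSPC, and for 13 in double mutant Ly6G+ cells. The share of all genes with such a gap was not counted, so these numbers cannot be set against it. Double mutant Ly6G+ cells, with the most such members, also had the widest spread of all genes. The spread of all genes between the libraries of a group (SD of the log2 gap) was 0.356 in double mutant HSPC, close to the 0.301 of wild type HSPC, and 0.709 and 0.998 in RUNX1 mutant HSPC and double mutant Ly6G+ cells. Replicate numbers name no order, and whether libraries with the same number share a mouse, litter or day is not given in the sources used here.

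**Figure D2:**
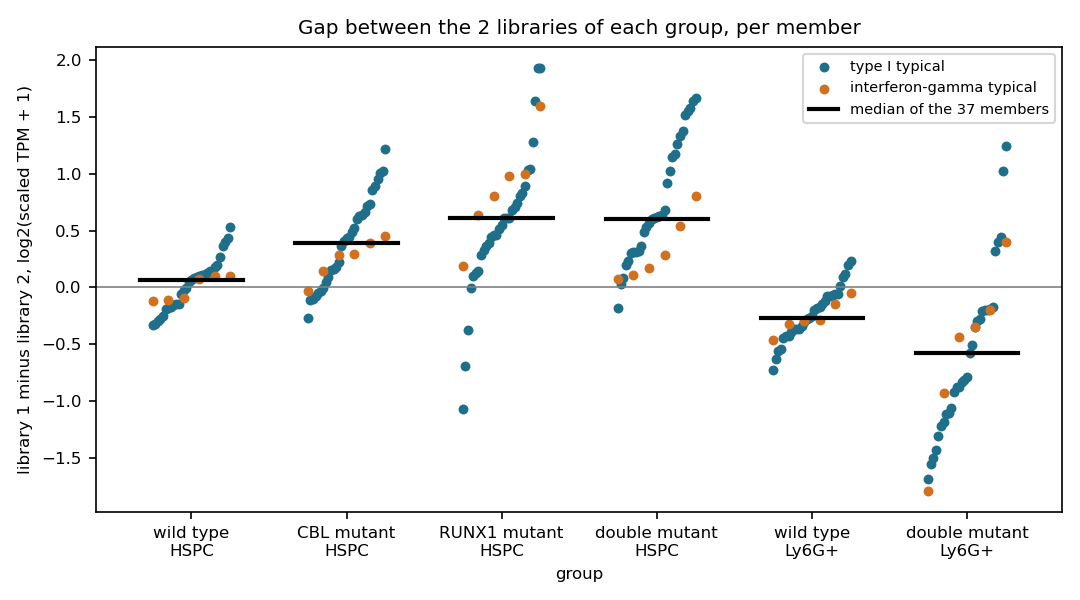
Each point is 1 of the 37 genes and shows log2(scaled TPM + 1) in library 1 minus library 2 of a group (vertical axis) for the 6 groups (horizontal axis), with a bar at the median of the 37. The points of double mutant HSPC lie above 0 except Ifit2, and those of double mutant Ly6G+ cells spread from -1.79 to 1.24.

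The third question was whether double mutant Ly6G+ cells differ from wild type Ly6G+ cells. No member was called, and neither was any of the 11744 genes tested by limma (0.0%), in a fit with 2 residual degrees of freedom. At an unadjusted p under 0.05 there were 11 of 37 members, all higher in double mutant cells, beside 14.1% of all genes. The median log2 difference of the members was 0.53, beside 0.04 for all genes, and 29 of 37 were positive. Both double mutant libraries lay above both wild type libraries for 21 members (33.7% of all genes) and below them for 1, Oasl2 (29.1%). With unscaled TPM the medians were 1.12 for the members and 0.58 for all genes.

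Of the 3 members with the smallest p, Ifi44 and Iigp1 were below 1 scaled TPM in both wild type Ly6G+ libraries. These genes and Mx2 passed the filter on low values only through the double mutant libraries, so they could enter the test only as higher there. The counts and the median above include them. Mx2 reached 1 TPM in no other library of the 12. Ifi44, an antiviral protein that limits cell growth, was at 0.554 and 0.355 scaled TPM in wild type and at 24.4 and 11.6 in double mutant Ly6G+ cells (3.59 ± 0.44, adjusted p = 0.211). Iigp1, a GTPase that attacks the vacuoles of parasites, was at 0.312 and 0.362 against 8.11 and 5.88 (2.54 ± 0.29, adjusted p = 0.21). Mx1, which encodes a GTPase of the same family as Mx2, was at 5.82 and 4.81 against 32.0 and 23.9 (2.17 ± 0.25, adjusted p = 0.21). For all 3 the groups were far apart although the test was not passed. Mx2 was at 0.205 and 0.459 against 4.87 and 3.32 (1.90 ± 0.30, adjusted p = 0.258), and Bst2 at 35.4 and 33.2 against 326 and 137 (2.58 ± 0.50, adjusted p = 0.272). Usp18 was at 10.5 and 11.1 against 27.2 and 21.6 (1.08 ± 0.22, adjusted p = 0.275). In these 6 genes double mutant library 1 was the higher of the pair. Irf7 was at 69.7 and 76.0 against 127 and 182, Stat2 at 14.7 and 16.4 against 26.8 and 34.5, Irgm1 at 21.8 and 26.9 against 49.3 and 56.9, and Xaf1, a promoter of apoptosis, at 14.9 and 18.1 against 33.2 and 40.5. In these 4 the groups were also apart and library 2 was the higher (adjusted p from 0.276 to 0.335). In a fit of all 12 libraries, which borrows the spread of HSPC, 7 members were called, all higher: Mx1, Mx2, Ifi44, Gbp3, Stat2, Bst2 and Iigp1 (7.76% of all genes called).

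The 2 double mutant libraries carried this difference unequally. Library 2 was above both wild type libraries in 34 of 37 members and below both in 1, with a median log2 difference of 0.94 from the wild type mean, where 45.2% of all genes were above and 37.2% below. Library 1 was above both in 21 and below both in 11, with a median of 0.25 (49.6% and 42.2% of all genes). The 11 included Oas3, at 36.1 in library 1 and 85.7 in library 2 against 63.9 and 82.9 in wild type, Rsad2, at 12.7 and 28.6 against 22.7 and 27.1, and Oasl2, at 38.7 and 111 against 120 and 161. Without library 1, 15 members were called, all higher, with 11.2% of all genes called. Without library 2, 17 were called, 9 higher and 8 lower, with 61.2% of all genes called. Called higher in both were Mx1, Eif2ak2, Irf7, Gbp3, Usp18, Stat2, Xaf1, Bst2 and Irgm1, whereas Gbp2 was higher without library 1 and lower without library 2. With 1 library left in the group, that library is assumed to vary as the wild type libraries do.

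Markers of other cells also differed between these libraries. Plasmacytoid dendritic cells are the main producers of type I interferon and express Bst2 as a surface marker and Irf7 at rest. The summed level of their 8 markers was 558 scaled TPM in double mutant Ly6G+ library 1 and 53.2 in library 2, against 71.9 and 64.6 in wild type. Siglech was at 106 in library 1 and 11.7 in library 2 against 5.51 and 5.29 in wild type. All 8 markers were above both wild type libraries in library 1 and 4 of 8 in library 2. Monocyte and macrophage markers summed to 345 and 1790 in the double mutant libraries and to 1990 and 2100 in wild type. Most of each sum was Ly6c2, at 189 and 1090 against 1830 and 1930 in wild type. Above both wild type libraries were 2 of 7 markers in library 1 and 5 of 7 in library 2. In library 2 Ccr2 was at 296 against 35.7 and 38.7, and Fcgr1, itself induced by interferon, at 27.9 against 1.81 and 2.78. Neutrophil markers summed to 56600 and 325000 against 503000 and 504000. Stem and progenitor markers summed to 317 and 87.1 against 33.6 and 35.5, with 5 of 7 above both wild type libraries in each double mutant library. Among them Flt3 was at 143 and 12.3 against 5.40 and 3.53, and Cd34 at 130 and 42.8 against 6.68 and 6.82. The part of these markers in the members' values was not tested. In HSPC the plasmacytoid markers summed to between 8.82 and 38.1 and Klk1 was at 0.

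**Figure D3:**
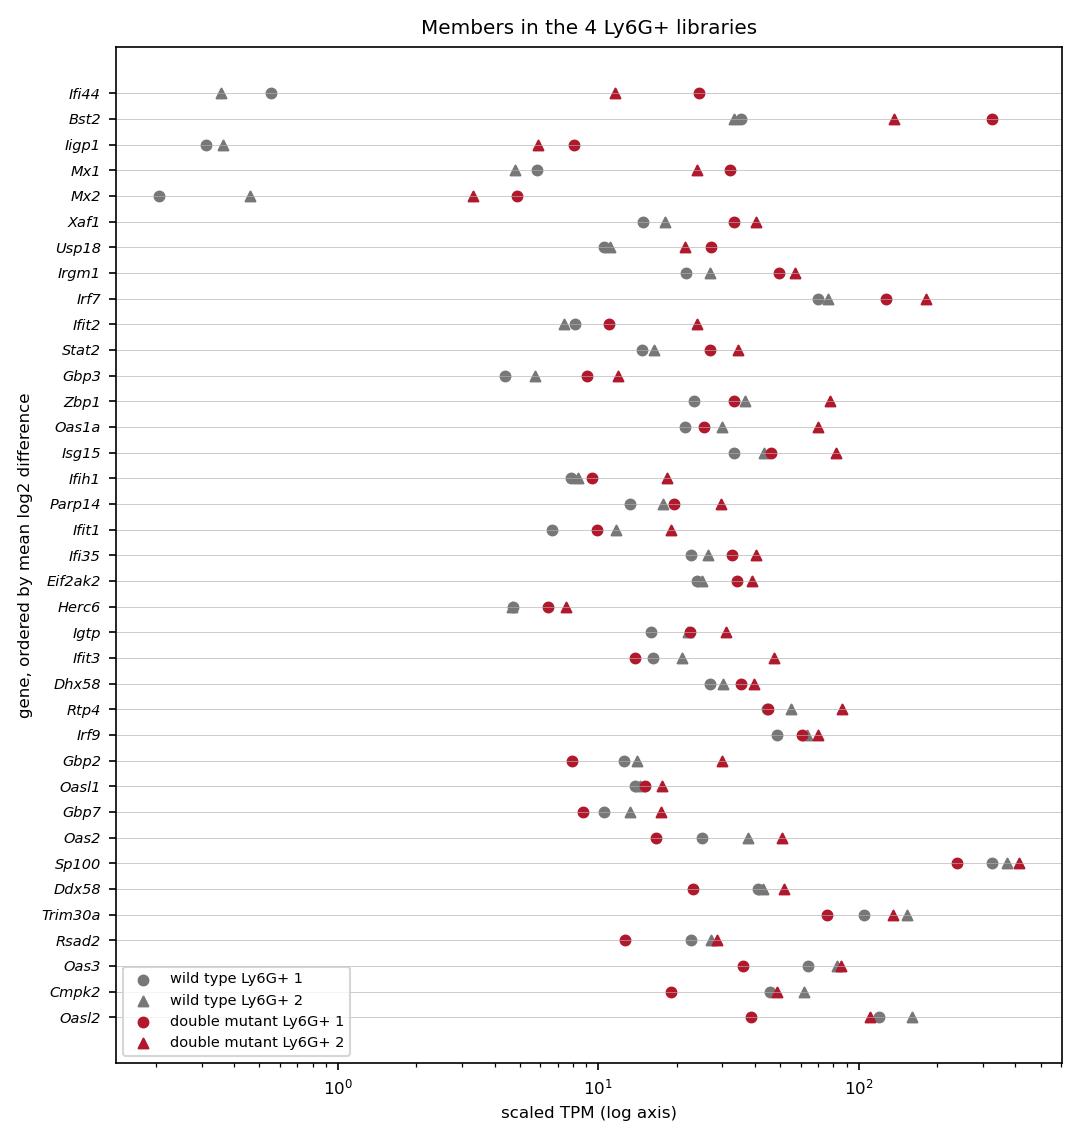
Scaled TPM on a log axis of the 37 genes in the 4 Ly6G+ libraries, wild type in grey and double mutant in red, with circles for library 1 and triangles for library 2, ordered by mean log2 difference. The 5 genes at the top (Ifi44, Bst2, Iigp1, Mx1 and Mx2) have both red points far to the right of both grey points, and at the bottom library 1 of the double mutant lies left of the others.

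**Figure D4:**
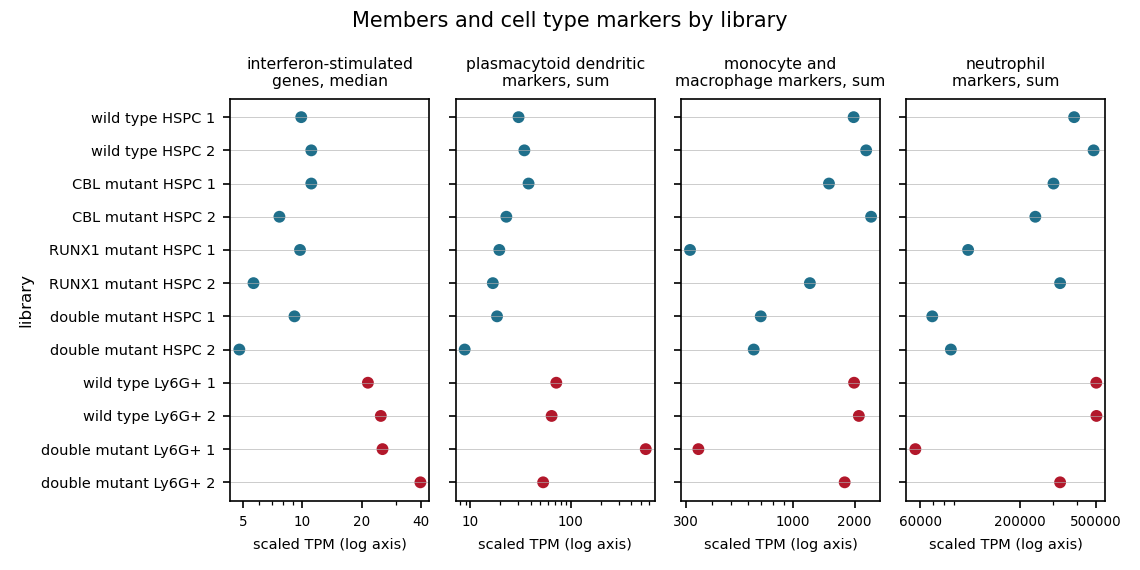
For each of the 12 libraries the panels give, on log axes in scaled TPM, the median of the 37 genes and the sums of the markers of plasmacytoid dendritic cells, of monocytes and macrophages and of neutrophils, with HSPC in blue and Ly6G+ cells in red. The median of the members is highest in double mutant Ly6G+ library 2 (39.7), while the plasmacytoid sum is highest in library 1 (558).

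Whether the double mutant effect differs between Ly6G+ cells and HSPC was tested as the difference of the 2 effects over all 12 libraries. No member was called by limma (0.0684% of 13155 genes, 0.0532% higher and 0.0152% lower), and 15 had an unadjusted p under 0.05, all with a higher effect in Ly6G+ cells, beside 9.75% of all genes. The difference was positive for 34 of 37 members, with a median of 0.99 beside 0.06 for all genes. It was 2.73 ± 0.43 for Iigp1 (adjusted p = 0.0791), whose values in double mutant HSPC were 0.600 and 0.0967 scaled TPM against 0.540 and 0.437 in wild type. It was 1.5 ± 0.30 for Stat2 (adjusted p = 0.157) and 1.93 ± 0.41 for Mx2 (adjusted p = 0.161). In these 3 genes both double mutant Ly6G+ libraries were above both wild type ones. Mx2 passed the filter on low values only through the double mutant Ly6G+ libraries, so it could enter this test only as higher there. In HSPC both double mutant libraries were below wild type for Stat2 and lay on either side of it for Iigp1 and Mx2. Without double mutant Ly6G+ library 2, 5 members were called (Mx1, Ifi44, Stat2, Bst2 and Iigp1, with 15.6% of all genes called) and the median was 0.51. Without library 1 none was called.

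The type I typical and interferon-gamma typical members were compared as counts and medians, since membership is too small and too mixed for more. In double mutant against wild type HSPC, 3 of 29 type I typical members had a positive difference with a median of -0.50, and 3 of 6 interferon-gamma typical members with a median of 0.01, beside 0.02 for all genes. All 3 called members were of the type I class. With unscaled TPM these medians were 0.00 and 0.54, beside 0.56 for all genes, so its sign did not hold for the type I class. It also rested on 1 library: without double mutant HSPC library 2 the medians were -0.03, with 14 of 29 positive, and 0.28, beside 0.01 for all genes, and without library 1 they were -0.85 and -0.22. Against CBL mutant HSPC the medians were -0.55 and 0.23, and -0.07 and 0.28 without double mutant library 2. Against RUNX1 mutant HSPC they were -0.36 and -0.18. That sign turned for the type I class without double mutant library 2 (0.23, with 20 of 29 positive) and for both classes without RUNX1 mutant library 1 (0.11 and 0.32). In RUNX1 mutant against wild type HSPC they were -0.21 and 0.15, and both were positive with unscaled TPM (0.29 and 0.59, beside 0.45). Without RUNX1 mutant library 2 the type I median was 0.07, and without library 1 the interferon-gamma median was -0.15. In CBL mutant against wild type HSPC they were -0.11 and -0.08, and both were positive with unscaled TPM (0.21 and 0.28, beside 0.33) and without CBL mutant library 2 (0.04 and 0.1). In double mutant Ly6G+ cells the classes had medians of 0.53, with 23 of 31 positive, and 0.68, with 6 of 6 positive, and of 0.14 and 0.22 without library 2. Between the wild type populations the medians were 1.10 and 0.42, and Gbp3 of the second class was the called member that fell. The gap between libraries also split the classes unevenly, with medians of 0.62 for type I and 0.22 for interferon-gamma typical members in double mutant HSPC and of 0.55 and 0.89 in RUNX1 mutant HSPC. In RUNX1 mutant library 1 Gbp2 was at 11.8 and Irgm1 at 32.6, against 3.21 and 16.0 in library 2. The difference between the classes was not tested.

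**Figure D5:**
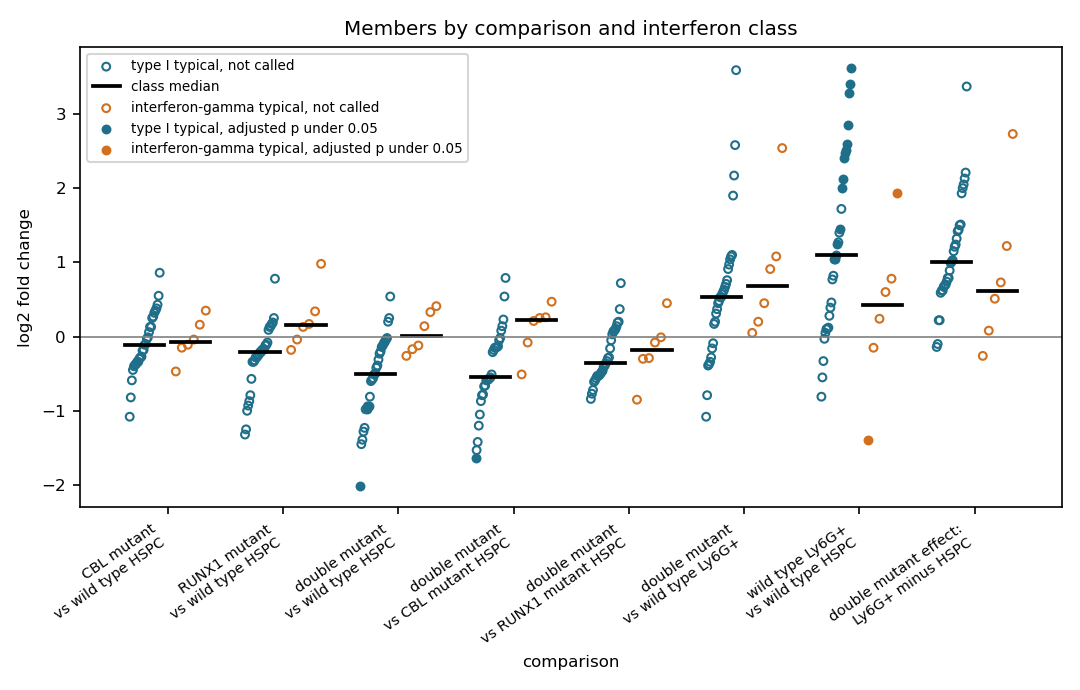
Log2 fold changes (vertical axis) of the tested members in the 8 comparisons (horizontal axis), type I typical in blue and interferon-gamma typical in orange, filled where the adjusted p was under 0.05, with a bar at each class median. Filled points are 17 for the wild type populations, 3 for double mutant against wild type HSPC and 1 for double mutant against CBL mutant HSPC.

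The rest of the pathway was read from a list of 76 other genes, of which 71 had a row. No interferon gene passed the filter on low values. Ifnb1, Ifna2, Ifna4, Ifna12, Ifne, Ifnl2 and Ifnl3 were listed at 0 in all 12 libraries, Ifng was above 0 in 2 libraries with a highest TPM of 0.0896, and Ifnk in 2 with 0.181. In double mutant against wild type HSPC 2 of 54 tested genes rose and 6 fell, where 4.56% and 6.54% of all genes did, in the same fit whose calls depended on single libraries. The lambda receptor Ifnlr1 held 12.9 and 11.7 in wild type, against 1.16 and 0.892 in double mutant HSPC (-2.72 ± 0.49, adjusted p = 0.0276). Samd9l, an antiviral growth inhibitor, fell from 24.8 and 23.3 to 8.25 and 6.36 (adjusted p = 0.0335), and Irgm2, a GTPase of the Irgm1 family, by 0.87 ± 0.20 (adjusted p = 0.0423). The 2 genes that rose were Ifngr1, the ligand-binding chain of the interferon-gamma receptor, from 119 and 130 to 237 and 331 (1.16 ± 0.25, adjusted p = 0.0343), and Irf5, from 8.49 and 8.79 to 27.3 and 16.9 (1.22 ± 0.23, adjusted p = 0.0286). Ifngr1 was also above CBL mutant HSPC (1.49 ± 0.25, adjusted p = 0.0288), where Tmem173 (STING) was the 1 gene called lower (-1.19 ± 0.23, adjusted p = 0.0435). In that comparison 1.47% of all genes were called higher and 2.21% lower. Against RUNX1 mutant HSPC 4 fell, among them Samd9l, Irf2 and Jak1, and none rose, where 3.2% and 5.89% of all genes did. The single mutants against wild type, double mutant against wild type Ly6G+ cells and the difference between the effects in the cell types gave no called gene of the list. Between the wild type populations 23 of 58 tested rose in Ly6G+ cells and 3 fell, where 16.4% and 22.7% of all genes did. The 4 with the smallest p were Ifnar1 (1.48 ± 0.14, adjusted p = 0.00053), Irf1 (1.54 ± 0.17, adjusted p = 0.00081), Ifit3b (3.08 ± 0.39, adjusted p = 0.0011) and Trim25 (1.10 ± 0.15, adjusted p = 0.00142), and the 3 that fell were the DNA sensor Cgas (-1.32 ± 0.21), Lgals3bp (-1.34 ± 0.37) and Ifi47 (-1.10 ± 0.35). Ifit3b was below 1 scaled TPM in every HSPC library, so it passed the filter on low values only through the Ly6G+ libraries. The 23 include it. Ifit3 and Ifit3b, Oas1a and its neighbours, Trim30a and the guanylate-binding proteins have near copies, so the split of reads among them is uncertain.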

How the data were processed

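RNA sequencing of 12 bone marrow libraries was analysed from 1 deposited table of TPM for 28987 genes, which the authors made with kallisto on mm10 after bcl2fastq and CASAVA 1.8, per the submitters' processing notes. The table is named as counts, but its values are not whole and sum to between 933370 and 981994 per library, so they were treated as TPM. The kallisto version and annotation are not given in the sources used here. A symbol was found for 27458 genes (94.7%).

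TPM were scaled with unweighted trimmed mean factors (trim 0.3 of ratios and 0.05 of levels). limma 3.58.1 in R 4.3.3, with trend and robust moderation, was run on log2(scaled TPM + 1) over genes with at least 1 TPM in at least 2 libraries of the fit, with Benjamini-Hochberg adjustment and group means only. The HSPC comparisons used 8 libraries, the Ly6G+ comparison 4, and the other tests all 12. Printed levels use the factors of the 12-library fit. The procedure was checked on simulated data for the 8-library HSPC fit only, with noise independent between genes and the same spread in every group. The Ly6G+ and 12-library fits were not simulated. The named genes were the called members, or the 3 with the smallest p, and up to 4 called pathway genes in each direction. Other members were named after their values were seen. The members, gene lists and tests were chosen with earlier results of these data known. Promoter sequences were taken from RefSeq (GRCm38.p6) by symbol, for 28 of 37 members. The values of 1 pathway gene are not reported here.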

Additional observations from a re-analysis of the deposited data

How the results depend on the processing

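The counts of called members were recomputed with no scaling, upper quartile scaling, pseudocounts of 0.1 and 5, no filter, a filter at 5 TPM, a replicate block, no trend or robust moderation, other libraries in the fit, each library left out in turn and, chosen after seeing the data, scaling factors from the genes kept by the filter. None of the named genes whose test was recomputed (the called members and, with fewer than 3, those with the smallest p) reversed its direction. For CBL mutant against wild type HSPC the count of 0 became 1 with the compared groups alone and was 0 without any 1 library. For RUNX1 mutant against wild type HSPC leaving out 1 library gave 0 to 6. For double mutant against wild type HSPC the count of 3 became 9 with the compared groups alone and 0 to 10 with 1 library left out. Against CBL mutant HSPC the count of 1 became 0 with no filter and 2 with the compared groups alone, and 0 to 4 with 1 library left out. Against RUNX1 mutant HSPC the count of 0 became 1 with upper quartile scaling (Gbp3), with the 5 TPM filter and with factors from the kept genes (Sp100 in both), and 0 to 4 with 1 library left out. In Ly6G+ cells the count of 0 became 7 with all 12 libraries and 0 to 17 with 1 library left out. Between the wild type populations 17 became 28 with the compared groups alone and 9 to 21 with 1 library left out. For the difference of the effects 0 became 1 with a pseudocount of 5 and 0 to 5 with 1 library left out. The share of all genes called moved with the setting as well. With the compared groups alone it went from 0.556% to 7.4% for CBL mutant against wild type HSPC. For RUNX1 mutant against wild type HSPC it went from 0.0483% to 0.00872%. The causes were not tested. Fits with fewer libraries also have fewer degrees of freedom, and their counts were lower in some cases and higher in others.

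Same-numbered libraries deviated together with correlations from -0.01 to 0.46, not above 0.1 in every pair, so the numbers were not taken to pair the samples. With a replicate block the counts were 5 for double mutant against wild type HSPC (with Irf9 and Oas3 added, both lower), 0 against CBL mutant HSPC (Cmpk2 at adjusted p = 0.0543) and 1 against RUNX1 mutant HSPC, and elsewhere within 1.5 times the count without it, with Gbp2 at adjusted p = 0.0503 between the wild type populations. Ddx58 in double mutant against wild type HSPC was not called with no scaling, upper quartile scaling, a pseudocount of 5, no filter, no trend or robust moderation, or factors from the kept genes (adjusted p from 0.0521 to 0.365), nor was Sp100 with no scaling (-0.30, adjusted p = 0.177). Depth is unknown, so the counting error of low values such as those of Mx2 and Iigp1 cannot be given.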
